A study of Mus musculus with 4 samples.

Results

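The genes described here are regulators of apoptosis, the programmed death of cells, in the dentate gyrus, the granule cell field of the hippocampus. They were taken by gene symbol and not by any measured value: every probe set of the array annotated to 1 gene whose symbol names a BCL-2 relative, a caspase, Apaf1, an inhibitor of apoptosis (Birc genes), a TRAF adaptor or a RIP kinase. The rule took 47 probe sets for 31 genes, out of 12488 probe sets on the array and 8251 genes with a probe set of their own. The RNA came from young male C57BL/6J mice whose only treatment was handling. It was extracted 1, 2, 4 or 6 h after the last shock of a parallel group of mice, with 1 array at each hour, so all 4 samples are controls and the hour is what the labels vary. The shocked mice were not analysed here. How many mice each sample holds is not given in the sources used here, and the p-values measure only the scatter between these 4 samples.

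Apoptosis runs along 2 connected routes. In the mitochondrial route, BCL-2 and its closest relatives hold the effectors BAX and BAK in check (the related effector BOK largely escapes them), BH3-only proteins such as BIM and BID relieve that restraint, and cytochrome c released from mitochondria lets APAF1 activate caspase-9. In the receptor route, ligands of the TNF family act through adaptors, TRAF proteins and RIP kinases on caspase-8 or on survival signalling, and IAP proteins restrain the cascade. In the adult dentate gyrus the machinery is best known from the removal of most newborn granule cells before they mature.

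The values are array intensities on a linear scale. An intensity of 38.3 (the 20th percentile over the whole table) was taken as a floor, and readings below it have no order. A gene was tested if its brightest probe set had a mean log2 intensity of at least 7.41 (an intensity of 170.4). By this filter 19 of the 31 genes could be followed across the hours and 12 could not, and none of the 19 had a value at the floor. Of BCL-2 and its protective relatives, all 4 genes with a probe set of their own passed (Bcl2, Bcl2l1, Bcl2l2 and Bcl2l10). The protective Bcl2a1 genes share their probe sets and were left out. Both effectors that the rule took (Bak1 and Bok), 3 of 4 BH3-only genes (Bad, Bid and Bcl2l11) and Bcl2l13 passed as well. Of the initiator caspases and their partners 4 of 5 passed (Casp2, Casp9, Apaf1 and Casp8ap2, with Casp8 under the filter). The 1 executioner caspase among these probe sets, Casp6, and all 4 inflammatory and other caspases (Casp1, Casp4, Casp12 and Casp14) did not. Of the IAP genes Birc2 and Birc6 passed and Birc3 and Birc5 did not, and of the TRAF group Traf2, Traf4 and Traf6 passed and Traf1, Traf5 and Traf3ip2 did not. The brightness of a probe set also depends on its probes, so a gene under the filter is not shown to be silent. In tissue of many cell types, fewer cells of a type and less RNA per cell cannot be told apart.

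The genes on either side of the filter differed in the base composition of their promoters, a feature that neither the symbol rule nor the filter used and that was looked at after the values were known. In the RefSeq promoter windows of build GRCm38.p6, from 250 bases before to 50 bases after each annotated start, the median count of the dinucleotide CG was 26 over the 18 matched genes past the filter (range 9 to 46) and 6 over the 10 matched genes under it (range 3 to 27). Over all genes of the array the medians were 21 for 4005 genes past the filter and 12 for 2567 genes under it. Windows with fewer than 10 CG dinucleotides belonged to 1 of 18 and 7 of 10 of the apoptosis genes, and to 14.1% and 43.5% of all genes, so the difference ran the same way across the array. No test was made. CG-rich promoters are in general typical of broadly expressed genes.

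The windows of 4 genes, among them 2 relatives that lie close together on 1 chromosome, show counts from both ends of the range and between them. They are printed 5′ to 3′ with each CG in capitals. Apaf1, the scaffold of the apoptosome, lies at chr10:91082694-91082993 (minus strand, 46 CG). Birc2 and Birc3, which encode the related inhibitors cIAP1 and cIAP2, lie on the minus strand at chr9:7837008-7837307 (34 CG, the first listed of 2 windows) and chr9:7873121-7873420 (7 CG). Casp12, a caspase of the endoplasmic reticulum in mice, lies on the plus strand of the same chromosome at chr9:5345226-5345525 (3 CG). Apaf1 and Birc2 were past the filter, and Birc3 and Casp12 were under it. Apaf1 has the highest count of the matched members, and Casp12 shares the lowest with Casp1. Over its 2 windows the median count of Birc2 is 27.5. Genes that run against the difference, such as Bcl2l2 (9 CG) past the filter and Birc5 (27 CG) under it, are not printed.
Apaf1: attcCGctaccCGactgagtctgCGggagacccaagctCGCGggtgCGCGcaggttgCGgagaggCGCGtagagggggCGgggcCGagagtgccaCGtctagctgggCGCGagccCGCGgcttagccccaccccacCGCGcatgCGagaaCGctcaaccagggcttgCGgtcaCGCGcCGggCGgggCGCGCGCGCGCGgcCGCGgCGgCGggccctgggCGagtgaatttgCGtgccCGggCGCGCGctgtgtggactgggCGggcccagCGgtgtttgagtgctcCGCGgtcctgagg
Birc2: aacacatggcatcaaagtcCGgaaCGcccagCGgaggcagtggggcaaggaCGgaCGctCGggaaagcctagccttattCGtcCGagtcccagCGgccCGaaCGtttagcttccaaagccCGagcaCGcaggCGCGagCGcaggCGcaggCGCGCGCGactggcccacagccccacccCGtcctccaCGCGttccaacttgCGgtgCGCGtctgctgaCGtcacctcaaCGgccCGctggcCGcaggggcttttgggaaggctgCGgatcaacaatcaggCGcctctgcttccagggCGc
Birc3: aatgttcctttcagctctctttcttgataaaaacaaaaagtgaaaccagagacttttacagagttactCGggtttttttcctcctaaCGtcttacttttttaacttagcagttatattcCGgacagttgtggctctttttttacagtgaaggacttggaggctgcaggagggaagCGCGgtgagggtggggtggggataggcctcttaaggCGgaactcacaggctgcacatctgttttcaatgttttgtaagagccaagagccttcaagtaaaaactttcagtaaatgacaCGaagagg
Casp12: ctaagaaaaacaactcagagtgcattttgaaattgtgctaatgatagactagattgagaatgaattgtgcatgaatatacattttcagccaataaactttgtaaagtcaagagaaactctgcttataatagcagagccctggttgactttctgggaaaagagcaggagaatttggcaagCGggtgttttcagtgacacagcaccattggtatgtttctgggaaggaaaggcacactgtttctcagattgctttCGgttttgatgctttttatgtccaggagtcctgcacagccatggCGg

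**Figure D1:**
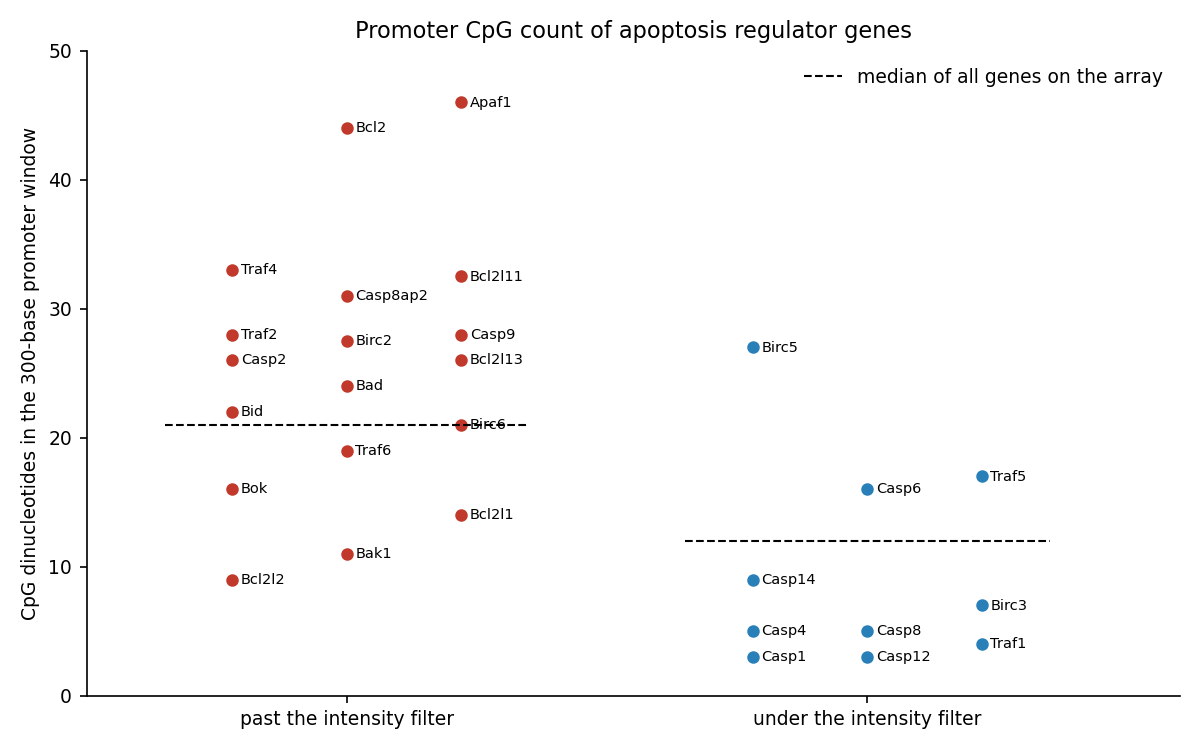
Number of CG dinucleotides in the 300-base promoter window of each apoptosis regulator gene (vertical axis; median over windows where a gene has several), for genes past and under the intensity filter; dashed lines are the medians of all genes of the array in each class. Of the 10 points under the filter, 7 lie below 10 CG, while Bcl2l2 at 9 is the 1 such point past the filter.

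No trend with the hour was called for any apoptosis regulator. In limma's linear fit over the 4 hours, with Benjamini-Hochberg adjustment over all 4951 genes tested, 0 of the 19 genes had an adjusted p under 0.05 (smallest adjusted p = 0.99993), against 0% of all genes. At an unadjusted p under 0.05 there were also 0 of 19, against 100 of 4951 genes (2.02%). Slopes were positive for 11 and negative for 8 of the 19 genes, with a median of 0.03 log2 per h beside a median of 0.00 over all genes, and 49.9% of all genes had a positive slope. With all probe sets of a gene averaged, only 14 members passed the filter, and their median slope was −0.02. None of the 19 genes moved the same way at every step, against 2.65% of all genes that were higher at every step and 2.40% that were lower at every step.

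The median span of the 4 protective genes was 0.63 log2, beside 0.78 log2 over all 19 members. Bcl2l1, which encodes BCL-XL, the main protective BCL-2 relative of mature neurons, had intensities of 1824, 1671, 2247 and 2116 at 1, 2, 4 and 6 h (mean 1964 ± 264, SD, n = 4). Bcl2, the founding member of the family, read 492, 457.5, 672 and 550.2. Both were highest at 4 h and lowest at 2 h, and spanned 1.34-fold and 1.47-fold between those arrays. Bcl2l2, which encodes BCL-W, ran the other way, with 1123, 1038, 734 and 1189.9 and its lowest value at 4 h. Bcl2l10, a relative best known from oocytes, read 137.8, 138.1, 252 and 190.3, close to the filter. Bcl2l13, a mitochondrial BCL-2 relative with roles in mitophagy, read 828, 648, 663 and 622, so that the 1 h array stood above 3 similar ones.

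Among the killers of the family, the effectors spanned under 2-fold and 2 of the 3 BH3-only genes over 2-fold, against 15% of all genes. Those 2, Bid and Bcl2l11, fell in the dimmest of 3 classes by mean level, where 32.1% of all genes spanned over 2-fold. Bok, an effector abundant in neurons, read 1585, 1862, 2081 and 1149 (mean 1669 ± 402, SD, n = 4), lowest at 6 h by 1.81-fold against 4 h. Bak1, a pore-forming effector of the mitochondrial membrane, read 388, 504, 356 and 338. Neither effector shared its highest hour with the other: Bok peaked at 4 h and Bak1 at 2 h. Bcl2l11, which encodes the BH3-only activator BIM, alternated between high and low arrays, with 347, 179.2, 339 and 155.1. Bid, cut by caspase-8 to link the receptor route to mitochondria, was low at 2 h alone, with 194.5, 118.9, 247 and 248. Bad, whose protein is held inactive by survival kinases, read 373, 558, 721.5 and 415.

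The caspase genes past the filter belong to the starting steps of the cascade. Casp9, the initiator activated by APAF1, read 254, 202.8, 464 and 258, so that 4 h stood above 3 similar arrays by the probe set used. Apaf1 itself was lowest at that hour, with 376.5, 444.5, 259.5 and 427. Casp2, an initiator linked to DNA damage, read 265, 405, 528 and 413, a span of 1.99-fold that lies just inside 2-fold. Casp8ap2, a caspase-8 binding protein that also serves histone mRNA processing, read 233, 208, 169.7 and 235. By the probe sets used, Apaf1 and Casp8ap2 were thus lowest, and Casp9 and Casp2 highest, on the same 4 h array. The other probe sets of Casp9 and Casp2 past the filter, given below, were highest at 1 h.

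The IAP gene Birc2 had the smallest span of the 19 by the probe set used, with 390.4, 407, 418 and 393 (mean 402 ± 13.1, SD, n = 4), a span of 1.07-fold. Birc6, which encodes the giant ubiquitin ligase BRUCE, read 393, 487, 306.5 and 409. Its highest value was at 2 h and its lowest at 4 h. Of the adaptors, Traf2, which brings IAP proteins to TNF receptors, read 598, 542, 354 and 726, with the low value at 4 h. Traf4 read 306.5, 529, 469.6 and 425, and Traf6, the adaptor of interleukin-1 and Toll-like receptors, 222, 201.3, 251.5 and 262. The 1 h array was the lowest of the 4 for Traf4, while the values of Traf6 spanned 0.38 log2.

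**Figure D2:**
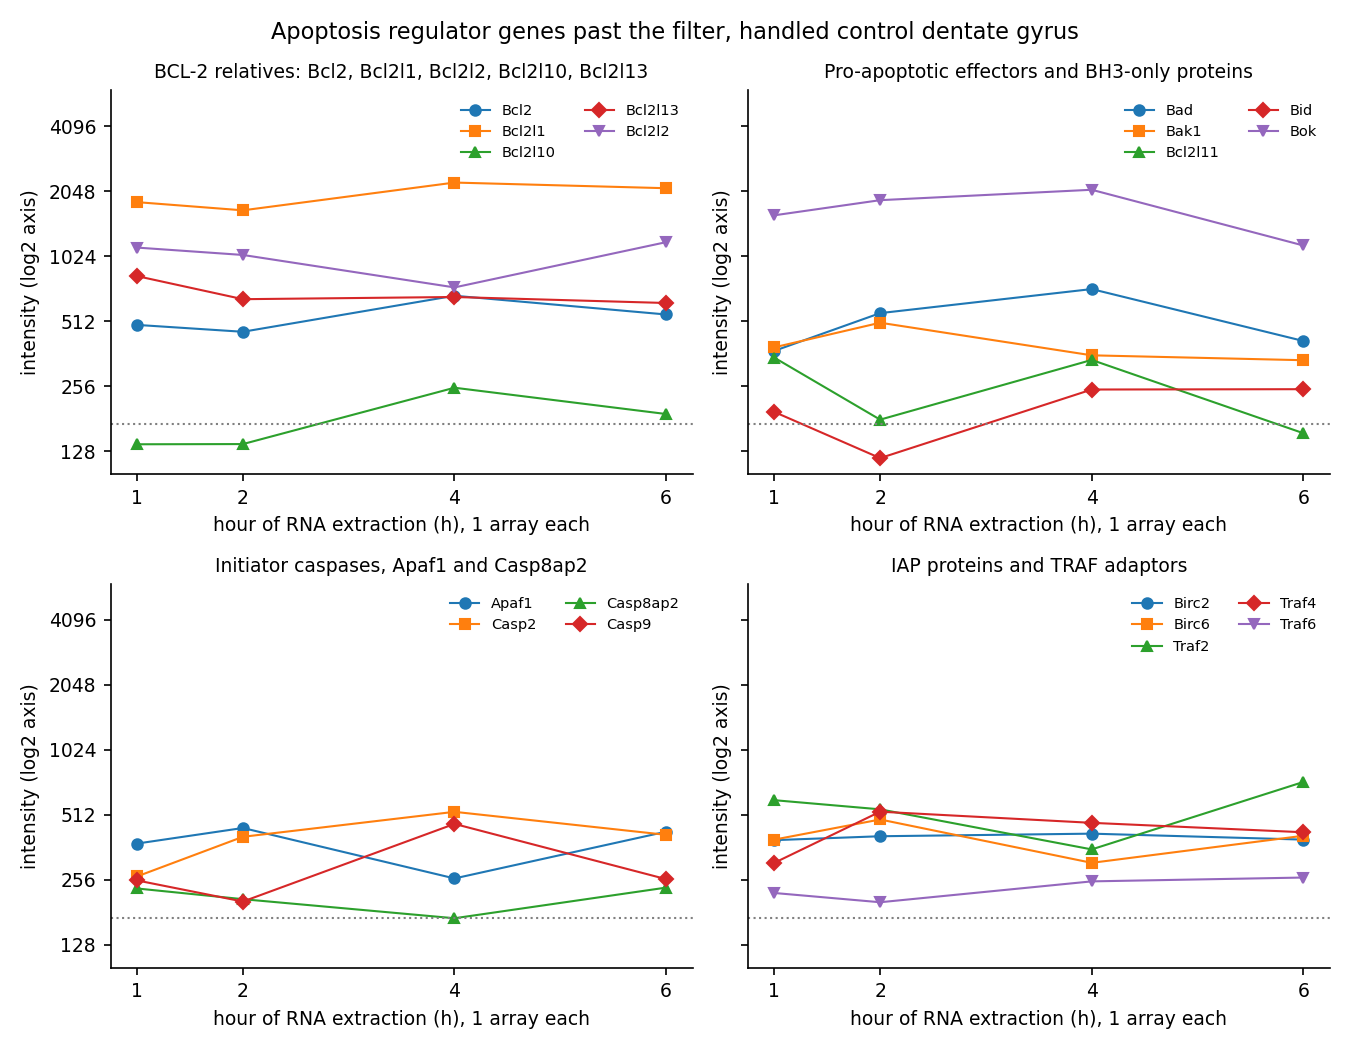
Intensity (vertical axis, log2 scale) of the 19 apoptosis regulator genes past the filter at each hour of extraction (horizontal axis, 1 array per hour), in 4 panels by role; the dotted line is the filter at 170.4. Birc2 is nearly flat between 390.4 and 418, and Bcl2l11 and Casp9 have the widest spans, at 2.24-fold and 2.29-fold.

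Spans over 2-fold were found for 4 of the 19 genes, Casp9 at 2.29-fold, Bcl2l11 at 2.24-fold, Bid at 2.09-fold and Traf2 at 2.05-fold, against 15% of all genes past the filter. With 1 array per hour these spans carry no test. Dim genes span more on these arrays: with all genes split by mean level into 3 classes of like size, 32.1% of the 1651 dimmest spanned over 2-fold, against 9.27% in the middle and 3.52% in the brightest class. Of the 19 members, 11 fell in the dimmest class and 3 of those were over 2-fold, 5 fell in the middle class with 1 over, and 3 in the brightest class with 0 over. The median span was 0.78 log2 for the members and 0.56 log2 over all genes. It was 0.41 log2 for the members without the 4 h sample. The count of 4 became 2 without the 2 h sample, where Casp9 and Bid were no longer over 2-fold, 2 without the 4 h sample, where Casp9 and Traf2 were not, and 2 without the 6 h sample, where Bcl2l11 and Traf2 were not. The share of all genes over 2-fold was also lower without these samples, at 10.5%, 7.61% and 10.7%.

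**Figure D3:**
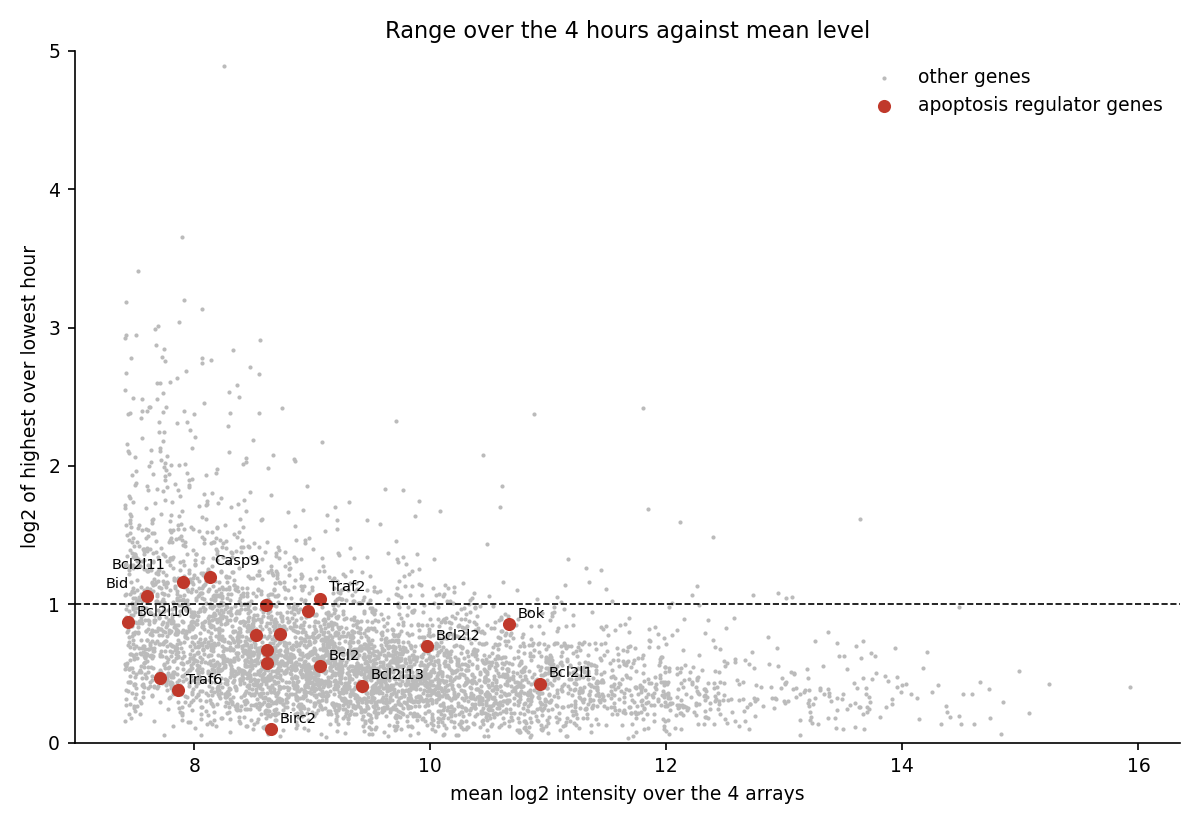
Log2 of the highest over the lowest hour (vertical axis) against mean log2 intensity over the 4 arrays (horizontal axis) for 4951 genes, with the 19 apoptosis regulator genes in red and the dashed line at 2-fold. Most members lie within the cloud of genes of like level, and 4 lie above the line.

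The slopes of the 8 genes that leaned most were similar in size to their errors. In log2 per h (SE, n = 4), they were 0.14 ± 0.13 for Bid, −0.14 ± 0.12 for Bcl2l11, 0.13 ± 0.13 for Bcl2l10 and 0.12 ± 0.09 for Casp2. For Bok, Casp9, Bak1 and Bcl2l1 they were −0.09 ± 0.07, 0.08 ± 0.11, −0.08 ± 0.08 and 0.07 ± 0.06. The limma fit gave all 8 an adjusted p of 0.99993. Without the 6 h sample the slopes of Bcl2l11 and Bok turned positive, at 0.06 and 0.12.

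By the probe sets used, the 4 h array held the highest value for 8 of the 19 genes (Bcl2, Bcl2l1, Bcl2l10, Bad, Bok, Casp2, Casp9 and Birc2) and the lowest for 5 (Bcl2l2, Apaf1, Casp8ap2, Birc6 and Traf2). It also held the highest value for 31.4% and the lowest for 29.2% of all genes. Relative to the other 3 hours, the members' median at 4 h was 0.20 log2 as deposited, beside 0.02 log2 over all genes. Scaling each array to its median intensity, which was 185.6, 187.3, 212.8 and 184.8 at 1, 2, 4 and 6 h, moved these medians to 0.00 for the members and −0.17 for all genes, and left 5 of 19 members highest at 4 h against 15.96% of all genes. The same array had the largest summed level of the 4 choroid plexus markers, with sums of 2123, 4822, 5692 and 2988 over the 4 hours. Of these Ttr read 81.3, 234, 2408 and 191, Igf2 1849, 4402, 2955 and 2521, Kl 134.1, 135.3, 203.7 and 167, and Folr1 58.2, 51.2, 125.8 and 109.1. The 4 h array also had the highest sums of the granule cell (41386) and CA field (5057) markers, each carried by 1 bright gene. The granule cell sum followed Ncdn (37162 at 4 h), while Calb1, Dsp and Neurod1 were highest at 2 h and Prox1 at 6 h. The CA field sum followed Rgs14 (4038 at 4 h), while Wfs1 and Pcp4 were highest at 1 h. Its sums of the astrocyte (25334) and microglia (5110.5) markers were the lowest of the 4 hours, but the single markers differed. The astrocyte sum was mostly Mt3, which was lowest at 6 h. Gfap and Slc1a2 were lowest at 2 h and Aqp4 at 4 h. Of the microglia markers C1qa, C1qb and Csf1r were lowest at 4 h, Ctss at 1 h and Cx3cr1 at 6 h. The sums of the granule cell, CA field, astrocyte and microglia lists spanned 1.11-fold to 1.26-fold over the hours, against 2.68-fold for the choroid plexus markers. The part of choroid plexus RNA, or of any other cell type, in the members' 4 h values was not tested.

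Genes with several probe sets on the array gave unlike courses over the hours. For 5 genes at least 2 probe sets passed the filter (Bad, Bcl2l11, Casp2, Casp9 and Traf4), and for 0 of the 5 did the brightest pair share the highest hour or the lowest hour. Over all 689 genes with such a pair, 32.4% shared the highest and 32.7% the lowest hour, so differing courses were common on these arrays.

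The second Bad probe set read 269, 125.9, 159.8 and 188, lowest at 2 h and highest at 1 h, where the one given above was lowest. Its counterpart above carries the suffix of an incomplete set of probes in its array name. The second Bcl2l11 probe set read 222, 193.5, 147.1 and 289.9, lowest at 4 h where the first was high, and highest at 6 h where the first was lowest. The second Casp2 probe set, named as one of probes alike to other genes, was lower at each later hour, with 242, 221, 179 and 124.3. For Casp2 the 2 courses ran in opposite directions up to 4 h, and both were lower at 6 h than at 4 h.

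Of Casp9, the other two probe sets past the filter read 417, 228, 221 and 203.6, and 255, 172.9, 171 and 229. Both were highest at 1 h and neither shared the 4 h peak of the first. Averaged over its probe sets, the span of Casp9 was 0.29 log2 in place of 1.195 log2, that of Bad 0.36 in place of 0.95 log2, and that of Casp2 0.44 in place of 0.99 log2, and the slopes of Casp2 and Casp9 turned negative. The second Traf4 probe set read 409.7, 388, 526 and 303, with its peak at 4 h and not at 2 h. These 5 genes cannot be given 1 course from these data.

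**Figure D4:**
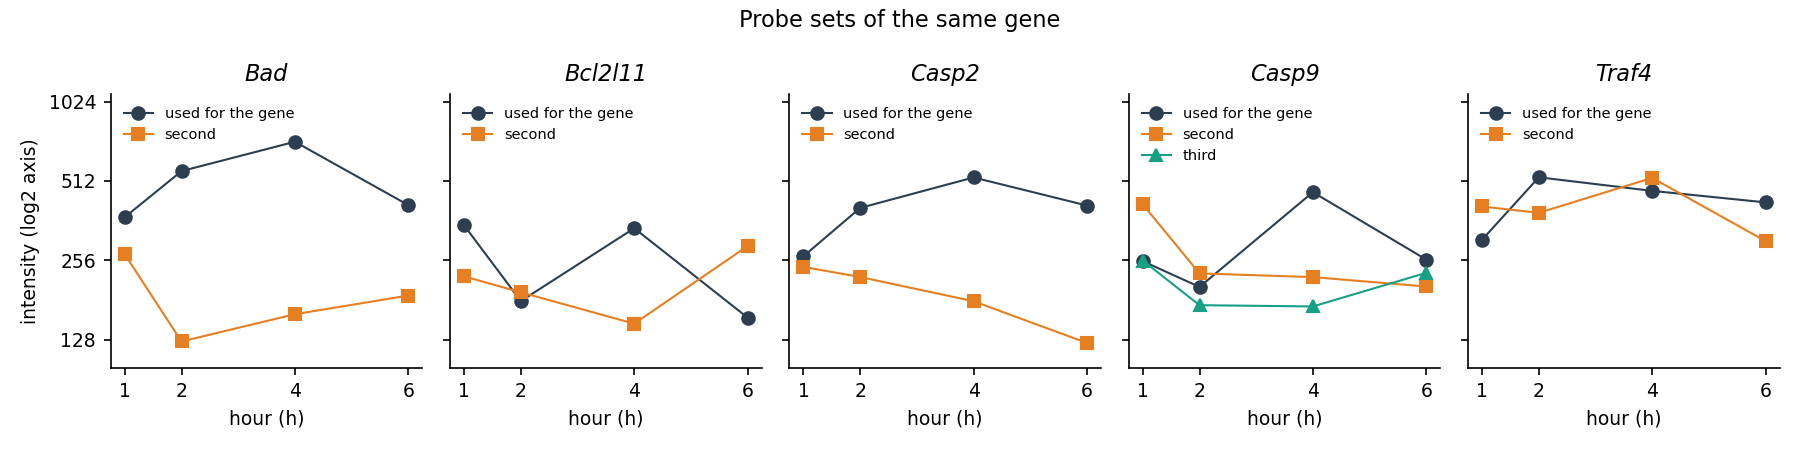
Intensity (vertical axis, log2 scale) at each hour (horizontal axis) of every probe set past the filter for the 5 apoptosis regulator genes that have more than 1, with the probe set used for the gene in dark blue. In each panel the brightest pair differs in its highest and in its lowest hour.

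Probe sets under the filter add little to the other genes. Those of Bcl2 read 173.3, 37.4, 134.4 and 62.8, and 51.5, 8.7, 57 and 10.9. Both were higher at 1 and 4 h than at 2 and 6 h. The Bcl2 probe set past the filter was lowest at 2 h and had its second highest value at 6 h. A second Birc2 probe set, also of the kind alike to other genes, read 103.4, 251, 308 and 85.2, and so did not show the flat course of the first. With both averaged, the span of Birc2 was 0.97 log2 in place of 0.10 log2. Further probe sets of Traf6 read 114.4, 229, 43.7 and 131.4, and 62.5, 109, 176 and 12, with opposite extremes at 4 h. A second Bcl2l10 probe set, at 109.3, 114, 71 and 140.1, was lowest at 4 h, where the one used for the gene was highest. Bcl2l1 (7.7, 8.3, 41.3 and 13.4), Bcl2l11 (9.4, 6.5, 20.8 and 12.9), Casp8ap2 (13.2, 8.8, 74 and 31.6) and Casp9 (8.7, 70.8, 31.6 and 6.3) each had 1 more probe set at or near the floor.

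The 12 genes under the filter included the inflammatory caspases. Casp1, which matures interleukin-1 beta, read 89.1, 41, 108.9 and 15.6. Casp4, which senses bacterial lipopolysaccharide inside cells, read 25.4, 94.2, 141.5 and 16.9. Casp12 read 10.4, 10.1, 149.6 and 37.9. All 3 genes were highest at 4 h, and the floor of 38.3 was reached by 1, 2 and 3 of their 4 values. The 4 h array was also the highest for 31.4% of all genes past the filter, a share not counted for genes under it. Casp14, a caspase of the skin barrier, read 85.6, 82.8, 112.9 and 150.3, highest at 6 h and without reaching the floor.

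The death receptor initiator Casp8 read 73.2, 14.5, 26.9 and 15.2 and the executioner Casp6 18.6, 11.2, 79 and 18.4, each above the floor on 1 array. Birc5, which encodes survivin of dividing cells, was over the floor only in the 2 h sample (33.8, 128, 8.2 and 29.8), and the BH3-only gene Bik only in the 6 h sample (35.4, 37.9, 35.6 and 169.9). Such single readings have no second array to set beside them. Birc3 read 175.4, 23.3, 69 and 35.3, and Traf5 215, 68.2, 76.2 and 71.8, both highest at 1 h. Traf3ip2, an adaptor of the interleukin-17 receptor, read 140.1, 38.1, 17.4 and 160.1, and Traf1 lay under the floor at every hour, at 8.1 to 23.4. A pair of probe sets shared by the protective Bcl2a1 genes was left out because each names several genes. They read 150.2, 113, 161.2 and 145, and 6.5, 67.8, 10.7 and 22.

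The wider pathway was read from 4 lists of genes outside the symbol rule, and 0 of their 40 genes past the filter had a called trend by limma. Of 9 death receptor, ligand and adaptor genes 3 spanned over 2-fold, against 15% of all genes. Tradd, the adaptor of TNF receptor 1, read 180.3, 339, 301 and 495, and the receptor gene Tnfrsf1a 92.8, 173.7, 354 and 175. A second Tnfrsf1a probe set read 91.8, 135, 159.1 and 270, highest at 6 h and not at 4 h. The death receptor gene Tnfrsf21 read 1030.1, 631, 690 and 872, and Daxx, a nuclear partner of the receptor Fas, 353, 501, 497 and 406.

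Of 10 genes of the p53 response and of further BCL-2 partners 4 spanned over 2-fold, against 15% of all genes. Mdm2, the ubiquitin ligase that removes p53, was lower at each later hour with 559, 432.5, 419.8 and 237.5, a slope of −0.22 ± 0.08 log2 per h (SE, n = 4; limma unadjusted p = 0.0200, adjusted p = 0.99993). Cdkn1a, the p53-induced cell cycle inhibitor, was low at 4 h alone (273, 296.5, 83.7 and 318), whereas its second probe set read 170.6, 236, 185.5 and 178.1. Bnip3 of mitochondrial quality control read 1067, 885, 727 and 849, and the chaperone cofactor Bag1 1164, 645, 737.5 and 1037.5.

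Of the mitochondrial death factor genes 0 of 10 spanned over 2-fold, against 15% of all genes. Their median span was 0.43 log2, beside 0.56 log2 over all genes. This list holds bright genes such as Slc25a4, and in the brightest class 3.52% of all genes spanned over 2-fold. Slc25a4, the adenine nucleotide carrier, read 13638, 12709, 13076 and 12903, the protease gene Htra2 2085.5, 3111.5, 3053 and 2270.5, Vdac2 of the outer membrane 902, 709.7, 513.5 and 735, and the nuclease gene Endog 361, 232, 261 and 245. Second probe sets of Htra2 (291, 540, 726 and 572) and Vdac2 (32.4, 40.7, 119.7 and 123.8) had other courses. Of 11 caspase substrate and nuclease genes 4 spanned over 2-fold, among them Dffa, the inhibitor of the caspase-activated DNase (260.4, 602.5, 530.3 and 483), and Cideb (82, 199.3, 255 and 233). A second Dffa probe set read 123.4, 117, 253 and 59.9. The spectrin gene Sptan1, a calpain and caspase substrate, read 4900, 5019, 5798 and 5557, and the calpain subunit gene Capns1 1316, 1217, 1280.2 and 1281. In all 4 lists together 27.5% of the 40 genes spanned over 2-fold, beside the 15% of all genes. These shares were not matched for mean level, with which the share over 2-fold changes.

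Granule cell markers were present, but passing the filter does not set the dentate gyrus apart from the CA field. All 5 granule cell markers on the array passed the filter, with means of 34615 ± 2314 for Ncdn, 2632 ± 265 for Calb1, 1171 ± 188 for Dsp, 561 ± 133 for Neurod1 and 192 ± 40.4 for Prox1, the last close to the filter (SD, n = 4). Of the CA field markers 2 of 3 passed, Rgs14 with a mean of 3482 ± 411 and Wfs1 with 900 ± 122 (SD, n = 4). Of the other lists, 3 of 4 interneuron, 4 of 4 astrocyte, 3 of 3 oligodendrocyte and 5 of 5 microglia markers passed. So did 3 of 5 endothelial and mural, 2 of 4 choroid plexus and 1 of 4 blood cell markers. The samples thus hold RNA of many cell types.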

How the data were processed

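RNA of 4 handled control samples was measured on oligonucleotide arrays. The deposited table holds 1 linear intensity per probe set and sample. The sources used here do not say how the authors made these intensities. Each array had a mean of 500.3 once the 2% highest and 2% lowest probe sets were trimmed, which points to 1 scaling target for all arrays. No further scaling was applied. Precision is limited by the small number of arrays. Probe sets that were controls (66) or had no (1193) or several symbols (396) were left out, which left 10833. All 47 member probe sets matched a RefSeq gene of GRCm38.p6 by identifier, with unchanged symbols. Each gene was represented by its brightest probe set (by mean log2), after the floor at the 20th percentile, and genes at or above the 40th percentile of gene means were tested. A line on the hour was fitted across 4951 genes with limma 3.58.1 in R 4.3.3 (lmFit, eBayes with an intensity trend; residual degrees of freedom 2, prior 10.4 at the median), called at an adjusted p of 0.05, and tested on simulated data. Alternatives changed the scaling, floor, filter, choice of probe set and prior variance, or left out each sample.

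The members and gene lists were chosen with earlier results of these data known. All members past the filter are named with their values, the 8 largest slopes with their SE, and of each pathway list the 2 genes with the largest span and the 2 with the highest mean. Members under the filter were named as well, which goes further than the rule.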

Additional observations from a re-analysis of the deposited data

Results flagged for a closer look

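One array stood far from the other 3 in 11 of 61 probe sets tested (18.0%), by Dixon's ratio of the gap to the range of log2 values, above its 95% critical value. The 61 do not cover every probe set named above. Chance flags about 1 in 20, a rate that does not hold where several values lie at the floor. In 8 of the 11, of Bcl2l1, Bik, Birc5, Casp12, Casp6, Casp8, Casp8ap2 and Casp9, the ratio was 1 because 3 values lay at the floor. Any single value above the floor then gives this ratio. The other 3 had all values above the floor: Traf5 was high at 1 h (215 against 68.2 to 76.2; ratio 0.904), the second Casp9 probe set was high at 1 h (417 against 203.6 to 228; ratio 0.840), and Cdkn1a was low at 4 h (83.7 against 273 to 318; ratio 0.886). None of the 19 probe sets used for members past the filter was among them.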

How the results depend on the processing

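No member had a called trend under any of the 13 alternatives, including each probe set tested by itself (25 member probe sets) and 1 prior variance for all genes. Without the 1 h sample 13 genes of the whole array were called and without the 6 h sample 3, none of them members. The 4 of 19 genes over 2-fold (15% of all genes) became 1 of 19 with an added constant of 50 (10.04% of all genes), 13 of 31 with no filter on low values (32.1%), 1 of 8 with the filter at the 60th percentile (6.39%) and 2 of 14 with the mean of all probe sets (17.7%). Leaving out each sample in turn gave 2 to 4 of 19 genes, against 7.61% to 10.7% of all genes. The count of 4 stood without the 1 h sample, against 10.4% of all genes. The members' median span was then 0.41 to 0.67 log2 in place of 0.78. Fewer arrays can only narrow a span. The members' median slope ran from −0.02 (mean of all probe sets, 14 members) to 0.07 log2 per h (without the 6 h sample). Of the 8 slopes given above, the only ones recomputed singly, 4 changed sign in 1 setting each: Bcl2l11 (0.056, with −0.215 to 0.056 over the left-out samples) and Bok (0.124, with −0.174 to 0.124) without the 6 h sample, and Casp2 (−0.036) and Casp9 (−0.044) with the mean of all probe sets, whose other probe sets run unlike the one used. Hour and array cannot be told apart. No paired analysis was possible because the 4 samples form 1 group.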
